A study of Mus musculus with 12 samples.

Results

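The comparison is that of mouse skin given an ageing treatment together with NSPCC1, a grape seed extract, with skin given the ageing treatment alone. Its members are the 4 M+NSPCC1 and 4 Model libraries, chosen by their titles, 8 of the 12 bulk RNA libraries of the series. Model skin came from mice aged with D-galactose, a sugar used at high dose to bring on glycation and oxidation, combined with ultraviolet A and B light, M+NSPCC1 skin came from mice with that same model and the extract, and both groups therefore share the sugar and the light. The remaining 4 libraries, Ctrl, are from control mice and are used here for the estimate of spread and as reference levels. The sources used here give no dose, time, strain, age, sex or body site. Nor do the labels say whether each library is a separate animal, and p-values therefore describe the spread among these libraries, part of which may be technical. The question asked of the comparison was which gene families lay higher or lower with the extract, by how much, and how far the skeletal muscle in single libraries moved with that.

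Skin samples mix epidermis, hair follicles, dermis, fat and, in the mouse, a sheet of striated muscle beneath the skin, the panniculus carnosus. Hair follicles pass through growth, regression and rest. During growth, matrix cells at the base of the follicle divide and fill with hair keratins, which keratin-associated proteins cross-link into the hair shaft, while melanocytes hand over pigment.

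The tables hold 7902 genes, 7638 of which were tested, and a library's estimated counts added up to 9717338 at the least and 10952623 at the most. The defining markers tested of basal and suprabasal keratinocytes, hair shaft, inner root sheath, melanocytes, muscle, fat, vessels and macrophages had counts in the 8 libraries. The exception was Itgb4, a basal keratinocyte integrin, with no count in 4 of them. Many chosen markers were not among the genes tested, which held 3 of 7 for basal keratinocytes, 2 of 6 for suprabasal keratinocytes and 3 of 5 for fat. Several libraries stood apart within their group. Model 02 and Model 04 held little skeletal muscle, Model 03 had high levels of immune, vessel and fibroblast genes and low levels of pigment and cell division genes, and M+NSPCC1 01 had the lowest hair shaft content. Of 69 gene lists with at least 5 members tested, 61 had a larger standard deviation of their list score (the mean log2 CPM of the members, CPM being counts relative to the scaled library total) among the Model than among the M+NSPCC1 libraries, with medians of 0.247 and 0.101. Model 03 was the library farthest from the mean of the 8 in 35 lists and Model 02 in 18.

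No gene passed in either direction at an adjusted p under 0.05 (Benjamini-Hochberg) in the quasi-likelihood test of edgeR (0 higher, 0% of genes tested, and 0 lower, 0%). The smallest adjusted p was 0.0806, that of Ppp1r26 and Kcnab1, which had no count in any Model library. At an unadjusted p under 0.05 there were 160 genes higher (2.09%) and 342 lower (4.48%) in M+NSPCC1, so 31.9% of these lay higher. That split turned with the scale and with single libraries. On log2(FPKM + 1), with FPKM the deposited value scaled by length and depth, 63.9% lay higher (366 against 207), on log2(FPKM + 0.1) 66.9% (351 against 174), and without Model 03 60.5% (756 against 493). With a skeletal muscle covariate 44.2% lay higher (417 against 526), with that covariate in the 8 libraries alone 50.5% (441 against 432), and by DESeq2 43.1% (273 against 360). DESeq2 called 14 genes higher (0.183%) and 59 lower (0.772%), and 23 of those 73 had no count in at least 1 of the 8 libraries. Among the 73 were many genes named below, such as Krtap31-1, Krt84, Padi1, Dsc2, Tjp1, Ntn4, Ppfibp2, Tent5b, Car6, Shh, Spen and Park7. Others named below, such as Ptch1, Chac1 and Egr1, were not among them. The 4 values of one group lay wholly above those of the other in 99 genes for M+NSPCC1 (1.3%) and in 221 genes for Model (2.89%). Over all genes tested the median log2 fold change was 0.0055, and 51.5% lay above 0. On log2(FPKM + 1) and log2(FPKM + 0.1) the median was 0.050 and 0.061. No further scaling between libraries was applied to FPKM, so the splits on those scales include that offset of all genes. The 95% interval of the fold change stayed within 2-fold in either direction for 77.1% of genes and within 1.5-fold for 54.7%, so for most genes a larger change lay outside the interval.

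Hair shaft genes made the largest downward shift of any family described here. Of the 53 keratin-associated protein genes tested, 52 had a log2 fold change below 0, with a median of -0.79 and quartiles of -0.84 to -0.62, where the median of all genes was 0.0055. None passed the adjusted threshold. In 15 of the 53 (28.3%) every M+NSPCC1 value lay below every Model value, where this held for 2.89% of all genes. Of the 15 hair shaft keratins tested, the filament proteins that these genes' products cross-link, 13 lay below 0, the median was -0.63 and 3 (Krt34, Krt84 and Krt86) had no overlap between groups, all on the lower side. The genes of each family lie side by side and are similar in sequence, so members are not independent and the division of reads among them is uncertain.

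Together the hair shaft keratins and keratin-associated proteins held 4.37, 6.88, 4.45 and 5.54% of the summed count in Model 01 to 04 and 2.19, 3.71, 4.27 and 3.54% in M+NSPCC1 01 to 04. No overlap was seen between groups, but Model 01 and Model 03 lay close to M+NSPCC1 03. The means were 5.31% ± 1.17 in Model and 3.43% ± 0.880 in M+NSPCC1 (SD, n = 4 each), and the difference of -1.88 percentage points ran from -2.19 to -1.36 with each library left out in turn. Ctrl skin held at most 0.0111%, so both groups carried hair shaft transcripts in amounts that Ctrl skin did not. In such bulk samples, fewer cells of a type and less RNA per cell cannot be told apart.

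**Figure D1:**
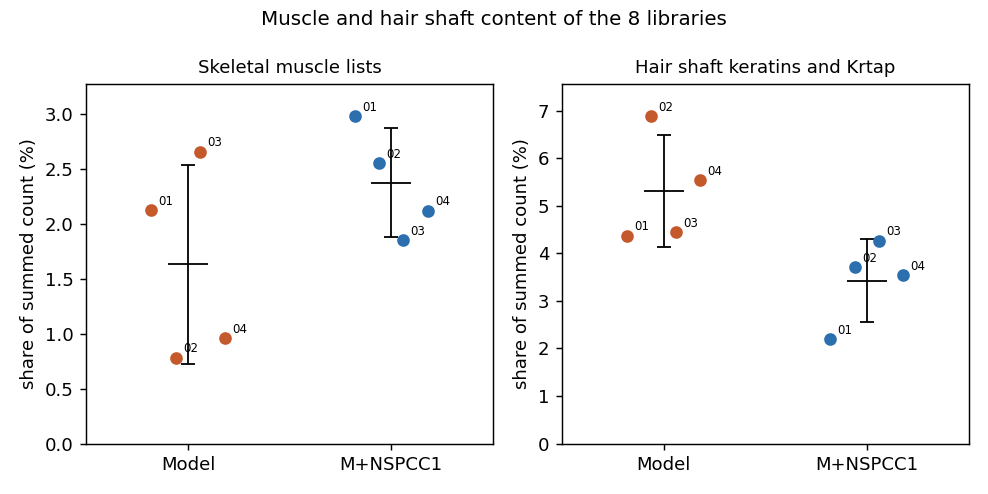
Share of the summed estimated count (%, vertical axis) held by the 3 skeletal muscle lists (left) and by hair shaft keratins with keratin-associated proteins (right) in each Model and M+NSPCC1 library, with the library number beside each point and bars for mean ± SD (n = 4). Muscle shares overlap between the groups, with Model 02 and Model 04 under 1% and the others between 1.85% and 2.97%, and hair shares do not overlap.

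Keratin-associated protein genes lie in clusters, whose medians are given as a description. The 22 members on chromosome 11 had a median log2 fold change of -0.81, with 12 of them free of overlap on the lower side, and the 22 on chromosome 16 a median of -0.79, with 3 free of overlap, against 2.89% of all genes. The 5 on chromosome 7, the 3 on chromosome 10 and the 1 on chromosome 1 lay at -0.34, -0.24 and -0.31. Krtap31-1 (chr11:99907920-99908890, mm10) had 82.8, 118, 113 and 101 CPM in Model 01 to 04 and 13.9, 50.4, 36.6 and 21.9 CPM in M+NSPCC1 01 to 04. All M+NSPCC1 values lay below the lowest Model value, with M+NSPCC1 01 lowest. Its log2 fold change was -1.75 (SE 0.36, 95% interval -2.54 to -0.96, edgeR adjusted p = 0.289), and DESeq2 gave an adjusted p of 0.00272.

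Its neighbours Krtap31-2 and Krtap9-5 had log2 fold changes of -1.47 (SE 0.38) and -1.48 (SE 0.41), also without overlap. Krtap24-1 on chromosome 16 was the single member above 0, at 0.043 (SE 0.37), and is named because of that value. Its Model values of 135, 298, 103 and 124 CPM show Model 02 far above the rest, and M+NSPCC1 values of 107, 169, 227 and 177 CPM lay among them. Leaving out any one of Model 01, Model 03, Model 04 or M+NSPCC1 03 put its log2 fold change below 0.

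Among the hair shaft keratins, Krt84, a type II hair keratin, had 41.3, 47.8, 122.7 and 57.1 CPM in Model 01 to 04 and 15.3, 26.1, 28.1 and 19.7 CPM in M+NSPCC1 01 to 04. These groups did not overlap, and Model 03 was well above the other Model libraries. The log2 fold change was -1.59 (SE 0.39, edgeR adjusted p = 0.36), and -1.76 with a hair shaft covariate fitted over all 12 libraries, Ctrl included. Krt39, a type I hair keratin, had a log2 fold change of -0.81 (SE 0.28) and overlapping groups. Of the 13 inner root sheath genes, which form the sleeve that moulds the growing shaft, 12 lay below 0, with a median of -0.29, and Krt26 and Krt72 were free of overlap, against 2.89% of all genes. Krt26, a keratin of that sheath, had 575, 579.9, 717 and 683 CPM in Model and 227, 461, 517 and 446 CPM in M+NSPCC1 libraries. Its groups did not overlap, and its interval of -1.67 to 0.41 included 0. That interval rests on a spread shared with Ctrl, where Krt26 had 0, 3.20, 0 and 0 CPM, and not on the 8 libraries alone. M+NSPCC1 01 had the lowest score in all 3 hair lists, at -0.88, -0.92 and -0.66 log2 units from the mean of the 8 for shaft keratins, associated proteins and sheath. Without it the medians were -0.45, -0.63 and -0.12.

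Regulators of the growing follicle lay on both sides of 0. In the list of 25 hair matrix regulators the median was -0.10, with 1 member free of overlap above (Shh) and 4 below (Dsc2, Gprc5d, Lrrc15 and Padi1), against 1.3% and 2.89% of all genes. Shh, the signal by which follicle cells drive downgrowth (chr5:28456840-28467101), had 47.5, 45.2, 33.8 and 37.7 CPM in Model 01 to 04 and 54.8, 59.3, 61.1 and 74.1 CPM in M+NSPCC1 01 to 04. Every M+NSPCC1 value lay above every Model value, and M+NSPCC1 04 was the highest. Its log2 fold change was 0.60 (SE 0.18, edgeR adjusted p = 0.548). Ptch1, its receptor and a transcriptional target of the pathway, had 107, 176, 96.4 and 104 CPM in Model and 172, 197, 235 and 194 CPM in M+NSPCC1 libraries. The groups overlapped through Model 02 alone, and the log2 fold change was 0.72 (SE 0.21, edgeR adjusted p = 0.532). Gli1, the pathway's transcriptional effector and a target of it, lay at 0.29 (SE 0.16) with overlapping groups, and is named after its value was seen.

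Wif1 and Vcan, genes of the dermal papilla, lay higher without overlap. Wif1, a secreted Wnt inhibitor, had 141, 127, 79.3 and 112 CPM in Model and 149, 147, 151 and 169 CPM in M+NSPCC1 libraries, a log2 fold change of 0.43 (SE 0.17), with Model 03 lowest. Vcan, a large proteoglycan of the papilla, lay at 0.39 (SE 0.13). Krt75, the companion layer keratin of the same list, lay at -0.42 (SE 0.19) with overlapping groups, and the median of the 15 members was -0.028. That median was 0.055 on log2(FPKM + 1), where the median of all genes was 0.050.

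Padi1, which converts arginine to citrulline in proteins of the hair and upper epidermis, lay lower with 177, 177, 192 and 248 CPM in Model and 79.7, 113, 118 and 106 CPM in M+NSPCC1 libraries. The groups did not overlap, and the log2 fold change was -0.92 (SE 0.21, 95% interval -1.39 to -0.46, edgeR adjusted p = 0.36). Fgf5, the growth factor that ends the growth phase of the follicle, lay at -0.70 (SE 0.26), with 21.7, 20.8, 16.2 and 31.2 CPM in Model and 8.25, 15.5, 17.1 and 14.6 CPM in M+NSPCC1 libraries. Its groups overlapped, since Model 03 lay below M+NSPCC1 03.

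Skeletal muscle genes made the largest upward shift. The median log2 fold change was 0.50 for the 35 sarcomere genes (32 above 0), 0.45 for the 30 genes of calcium handling and the muscle membrane (29 above 0) and 0.48 for the 22 muscle energy enzymes (all 22 above 0). None passed. Of these 87 genes only Synpo2l was free of overlap, where 1.3% of all genes were. Muscle genes share their source, so the count of members on one side says little more than a single measurement of muscle content would.

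The 3 lists held 2.12, 0.782, 2.65 and 0.961% of the summed count in Model 01 to 04 and 2.97, 2.55, 1.85 and 2.12% in M+NSPCC1 01 to 04. The M+NSPCC1 libraries lay near Model 01 and Model 03, with M+NSPCC1 01 the highest of the 8, and Model 02 and Model 04 lay below all others. The means were 1.63% ± 0.905 in Model and 2.37% ± 0.494 in M+NSPCC1 (SD, n = 4 each), against 12.98% ± 0.213 in Ctrl skin. The difference of 0.743 percentage points was 0.461 without Model 02, 0.52 without Model 04 and 1.08 without Model 03.

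Single muscle genes also had their lowest values in Model 02 and Model 04. Acta1, skeletal muscle actin (chr8:123891758-123894775), had 3277, 1463, 4814 and 1835 CPM in Model 01 to 04 and 4421, 4219, 3052 and 3308 CPM in M+NSPCC1 01 to 04. Model 03 was the highest of the 8 and Model 02 the lowest, and the log2 fold change was 0.40 (SE 0.31, 95% interval -0.28 to 1.08). Myh4, the myosin heavy chain of the fastest fibres, had 1553, 584, 1496 and 207 CPM in Model and 2289, 1709, 1520.1 and 1518 CPM in M+NSPCC1 libraries, with a log2 fold change of 0.87 (SE 0.47). Model 04 was the lowest and Model 02 the next. Tnnt3, fast skeletal troponin T, lay at 0.52 (SE 0.37).

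Synpo2l, a protein of the sarcomere's Z-disc, had 6.82, 1.48, 7.74 and 6.52 CPM in Model and 12.3, 14.3, 9.66 and 12.8 CPM in M+NSPCC1 libraries. Its groups did not overlap, and the log2 fold change was 1.12 (SE 0.34, edgeR adjusted p = 0.551). Among genes of calcium handling, Atp2a1, the calcium pump of the sarcoplasmic reticulum, lay at 0.56 (SE 0.43), the calcium buffer Pvalb at 0.70 (SE 0.49), the channel Cacna1s at 0.50 (SE 0.29) and Jsrp1, of the junctional sarcoplasmic reticulum, at 0.71 (SE 0.27). Among the energy enzymes, muscle creatine kinase Ckm lay at 0.55 (SE 0.34), the glycogen phosphorylase Pygm at 0.50 (SE 0.38) and the AMP deaminase Ampd1 at 0.82 (SE 0.38). Apart from Synpo2l, the groups of these genes overlapped.

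Whether muscle content moved with the other families was examined by adding the sarcomere score of each library to the fit. The covariate takes out the muscle lists' own difference by construction, and their medians became 0.022, -0.021 and -0.012. Of 66 other lists with at least 5 members tested, 33 moved by over 0.1 on the log2 scale, 22 of them downward and 11 upward, and 24 changed sign. Cell division and pigment genes moved up. The median of the 57 mitosis genes went from 0.17 to 0.41, that of the 43 DNA replication genes from 0.20 to 0.37 and that of the 19 melanocyte pigment genes from 0.084 to 0.53. Immune and vessel genes moved down, with macrophages and dendritic cells going from -0.13 to -0.47, the interferon response from -0.064 to -0.45 and endothelium from -0.09 to -0.42. Hair matrix regulators went from -0.10 to 0.12.

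The hair shaft shift shrank with the muscle covariate but kept its sign. The median went from -0.79 to -0.55 for keratin-associated proteins and from -0.63 to -0.19 for hair shaft keratins. With a hair shaft covariate in place of muscle, the sarcomere median was 0.41, and the hair lists, from which that covariate was built, lay at 0.16 and 0.43. That covariate was fitted over all 12 libraries, and shaft keratin scores varied most among the Ctrl libraries, where counts were near 0. Their SD was 1.31 in Ctrl, 0.40 in Model and 0.44 in M+NSPCC1. What the covariate takes out is therefore set in part by Ctrl, and it was not fitted in the 8 libraries alone. Model 02, with the least muscle, also had the most hair shaft, and M+NSPCC1 01, with the most muscle, had the least. No gene passed with either covariate, where the smallest edgeR adjusted p was 0.134 with muscle and 0.205 with hair.

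**Figure D2:**
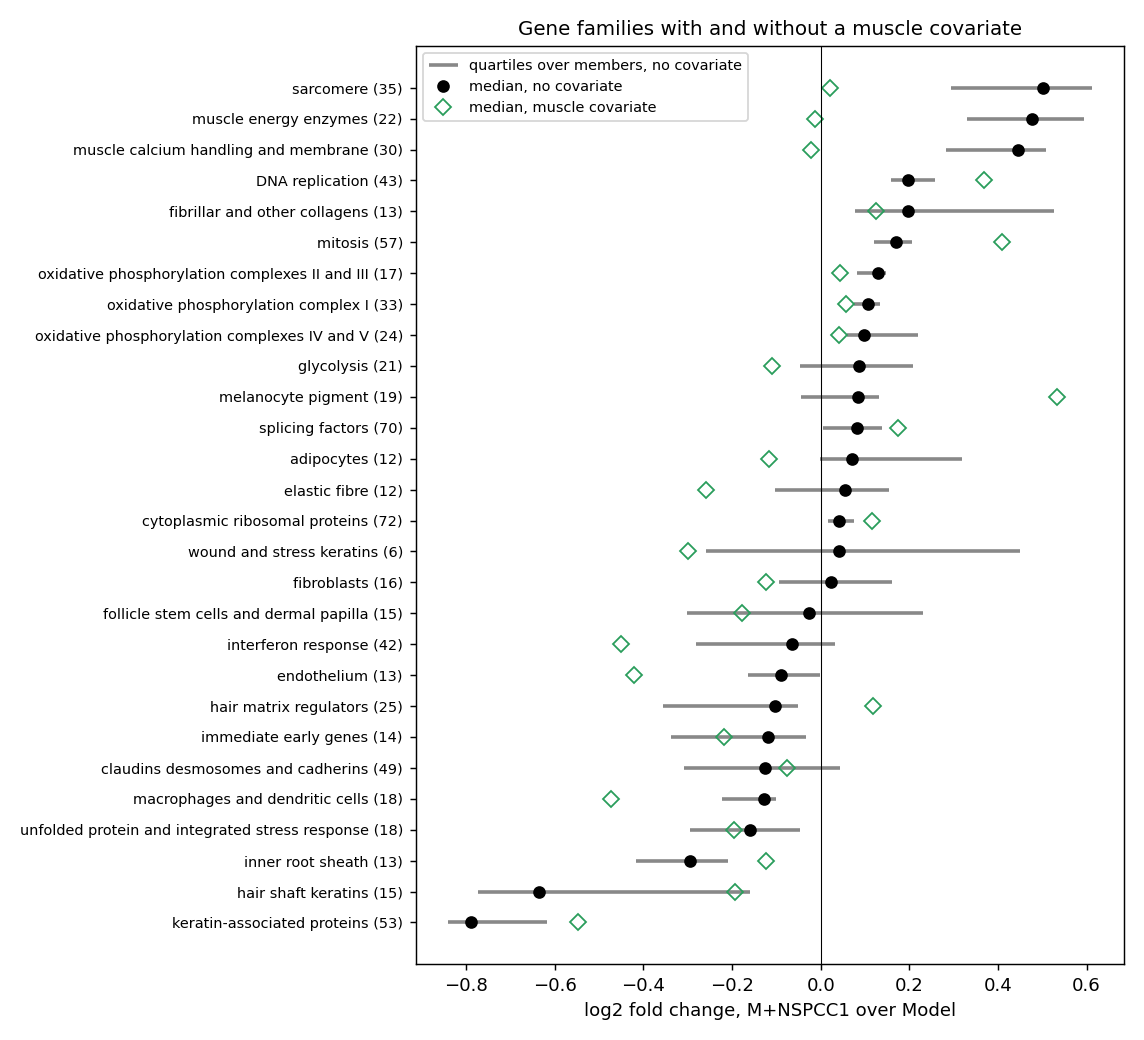
Median log2 fold change of M+NSPCC1 over Model (horizontal axis) for 28 gene lists, with the number of members tested in brackets. Filled circles and bars give the median and quartiles over members without a covariate, and open diamonds the median with the muscle covariate: the muscle lists go to near 0, mitosis and melanocyte pigment move right, and macrophage, interferon and endothelial genes move left.

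In several of these lists Model 03 stood far from the other libraries. It lay 1.01 log2 units from the mean of the 8 for macrophages and dendritic cells, 0.86 for the interferon response, 0.77 for endothelium and 0.62 for fibroblasts. Model 03 lay at -0.62 for mitosis, -0.52 for DNA replication and -0.92 for melanocyte pigment. Model 02 stood on the other side for several of these, with -0.60, -0.59, -0.62 and -0.54 for the first 4 lists. Model 03 had the most muscle of the Model group and Model 02 the least, so the covariate and these 2 libraries cannot be told apart with 4 libraries a group.

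**Figure D3:**
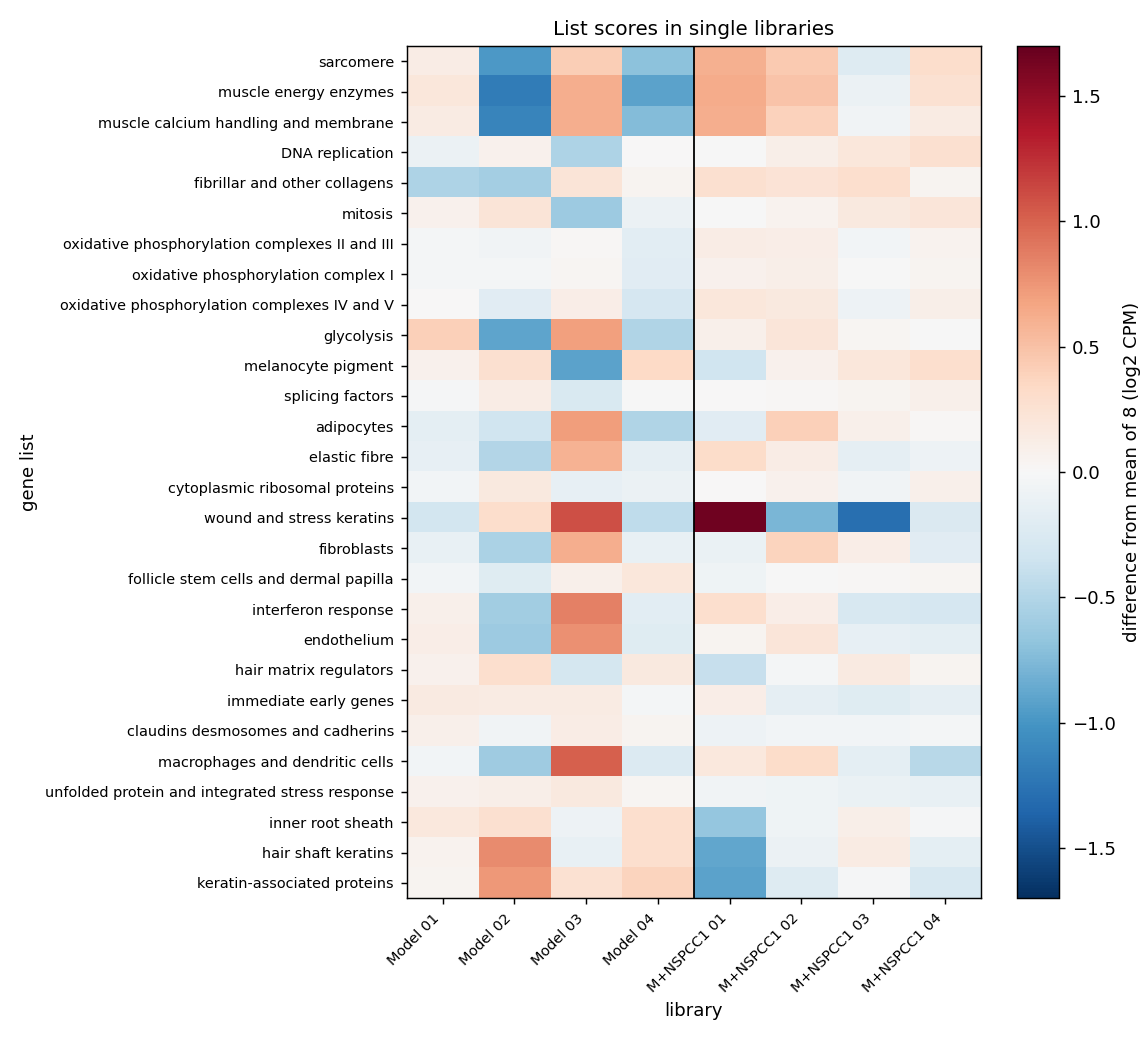
List score in each library less the mean over the 8 (log2 CPM, colour scale, red above the mean and blue below), with gene lists in rows and libraries in columns. Model 02 and Model 03 stand farthest from the mean in most of the lists, M+NSPCC1 01 is the bluest library in the hair shaft rows, and wound and stress keratins reach 1.66 in M+NSPCC1 01.

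Genes of cell division lay slightly higher. Of the 43 DNA replication genes 42 lay above 0, with a median of 0.20, and of the 57 mitosis genes 54, with a median of 0.17, where 51.5% of all genes lay above 0. None passed, and 2 of the 100, Gins2 and Tk1, were free of overlap on the higher side, a share near the 1.3% of all genes. Gins2, a subunit of the replicative helicase, had 18.7, 20.7, 17.9 and 23.0 CPM in Model and 24.2, 27.1, 24.96 and 27.8 CPM in M+NSPCC1 libraries and a log2 fold change of 0.37 (SE 0.13, edgeR adjusted p = 0.621). Its groups did not overlap, with Model 03 lowest.

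In the mitosis list, Cdca3, a cell division cycle protein, had 67.4, 93.9, 50.01 and 82.1 CPM in Model and 89.0, 89.9, 96.8 and 107 CPM in M+NSPCC1 libraries. Model 03 was the lowest of the 8, and Model 02 lay among the M+NSPCC1 values. Ccna2, cyclin A2, lay at 0.31 (SE 0.19) and Mki67, a marker of dividing cells named after its value was seen, at 0.20 (SE 0.21). Mki67 had 549, 732, 299 and 622 CPM in Model and 590.4, 616, 636 and 694 CPM in M+NSPCC1 libraries, so that Model 03 alone lay below the M+NSPCC1 range by a wide margin and Model 02 lay above it. Without Model 03 the list medians were 0.016 for mitosis and 0.092 for DNA replication, and the log2 fold change of Mki67 was -0.000857. With the muscle covariate, 26 of 43 replication genes and 24 of 57 mitosis genes had an unadjusted edgeR p under 0.05 on the higher side. In that fit this held for 5.46% of all genes (6.89% on the lower side), with 49.7% of all log2 fold changes above 0 and 50.3% below. None passed after adjustment. Members of these lists are not independent, and Model 03 cannot be told apart from the covariate, so the counts are descriptions only.

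Pigment genes turned direction with single libraries left out. The median of 19 melanocyte genes was 0.084, -0.14 without Model 03 and -0.015 without M+NSPCC1 04. Slc45a2, a transporter of the pigment granule, had 54.5, 60.1, 18.8 and 59.6 CPM in Model and 44.5, 59.2, 64.5 and 67.2 CPM in M+NSPCC1 libraries. Model 03 was low and the other 7 libraries overlapped.

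Stress response genes lay lower by small amounts. Of 18 genes of the unfolded protein and integrated stress response 14 lay below 0, with a median of -0.16, and 3 were free of overlap, where 2.89% of all genes were. Of 14 immediate early genes, which are switched on within minutes of a stimulus, 12 lay below 0, with a median of -0.12, and 2 were free of overlap. Upstream sequences of 3 members that hold a motif of the integrated stress response are shown because most of the list lay lower. The motif is the C/EBP-ATF response element, TGATGNAA, read on both strands, and the windows are the 250 bases before the start that the promoter table gives in GRCm38.p6 (the same assembly as mm10), taken from RefSeq and written on the gene's strand, with each match in capitals. For Slc7a11 that start lies inside the annotated span of the gene (chr3:50364936-50499087), so the window does not lie before the outermost end of the gene.
Chac1 (chr2:119350992-119351241, plus strand): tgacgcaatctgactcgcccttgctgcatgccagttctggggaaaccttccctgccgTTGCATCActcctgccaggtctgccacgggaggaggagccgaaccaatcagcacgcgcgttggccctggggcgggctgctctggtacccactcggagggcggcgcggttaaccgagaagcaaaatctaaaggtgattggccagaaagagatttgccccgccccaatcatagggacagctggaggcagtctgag
Slc7a11 (chr3:50443614-50443863, minus strand): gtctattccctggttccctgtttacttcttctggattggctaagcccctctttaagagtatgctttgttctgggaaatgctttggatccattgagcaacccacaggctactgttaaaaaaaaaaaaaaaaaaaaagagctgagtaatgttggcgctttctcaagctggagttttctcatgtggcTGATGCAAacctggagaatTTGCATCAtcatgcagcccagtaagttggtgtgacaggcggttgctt
Atf3 (chr1:191183334-191183583, minus strand): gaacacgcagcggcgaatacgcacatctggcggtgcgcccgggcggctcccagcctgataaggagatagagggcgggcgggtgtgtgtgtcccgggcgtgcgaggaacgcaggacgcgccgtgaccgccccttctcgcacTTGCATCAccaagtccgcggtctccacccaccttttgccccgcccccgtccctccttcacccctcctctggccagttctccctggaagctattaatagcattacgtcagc
Chac1 has 1 match, beginning 193 bases before the start, Slc7a11 has 2, beginning 66 and 47 bases before it, and Atf3 has 1, beginning 110 bases before it. Of the 15 members of the stress list found in the promoter table, 5 (33.3%) held the motif (Atf3, Chac1, Herpud1, Slc7a11 and Vldlr), against 3.45% of 32851 windows of the same length. Since the list was written from genes of this response, the share holding its motif says nothing about the comparison. A match is a description of these letters and not a site of binding. None of the 15 held TGACGTCA, the cyclic AMP response element (1.55% of all windows), or the heat shock element (0.466%), in this window.

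Chac1 encodes an enzyme that degrades glutathione and is a target of the stress factors ATF4 and CHOP. It had 120.0, 149, 251 and 120.0 CPM in Model 01 to 04 and 74.2, 90.3, 108 and 95.4 CPM in M+NSPCC1 01 to 04. The groups did not overlap, although M+NSPCC1 03 lay close to Model 01 and Model 04, and Model 03 stood far above the rest. The log2 fold change was -0.80 (SE 0.22, 95% interval -1.27 to -0.32, edgeR adjusted p = 0.456). Slc7a11, the cystine importer that feeds glutathione synthesis, had 43.7, 53.8, 45.1 and 61.3 CPM in Model and 34.7, 30.5, 34.1 and 34.5 CPM in M+NSPCC1 libraries. These groups did not overlap either, but the gene had a wide interval of -1.74 to 0.53. That interval too rests on a spread shared with Ctrl, where Slc7a11 had 2.43, 0, 0 and 0 CPM (mean 0.608). Its partner chain Slc3a2 lay at -0.26 (SE 0.08), with no overlap. Atf3, a transcription factor of both lists, had 18.9, 25.4, 23.3 and 14.7 CPM in Model and 15.8, 12.98, 10.1 and 11.8 CPM in M+NSPCC1 libraries, a log2 fold change of -0.70 (SE 0.28). Model 04 overlapped with M+NSPCC1 01.

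Egr1, an immediate early transcription factor, had 316, 306, 301 and 308 CPM in Model 01 to 04 and 249, 228, 209 and 219 CPM in M+NSPCC1 01 to 04. Every M+NSPCC1 value lay below every Model value. Its log2 fold change was -0.44 (SE 0.15, edgeR adjusted p = 0.606). Dusp2, a phosphatase that switches off MAP kinases, had 57.7, 61.1, 77.2 and 51.7 CPM in Model and 30.3, 45.9, 46.3 and 46.3 CPM in M+NSPCC1 libraries, also without overlap, and a log2 fold change of -0.55 (SE 0.17). Fosl2, a subunit of the AP-1 factor, lay at -0.23 (SE 0.08), with overlapping groups.

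Dusp5, a nuclear phosphatase of ERK, was the only one of 10 immediate early genes found in the promoter table with a CArG box, the site of serum response factor, which 1.47% of all windows held. It has 2 in tandem, beginning 82 and 72 bases before the start and shown in capitals.
Dusp5 (chr19:53528895-53529144, plus strand): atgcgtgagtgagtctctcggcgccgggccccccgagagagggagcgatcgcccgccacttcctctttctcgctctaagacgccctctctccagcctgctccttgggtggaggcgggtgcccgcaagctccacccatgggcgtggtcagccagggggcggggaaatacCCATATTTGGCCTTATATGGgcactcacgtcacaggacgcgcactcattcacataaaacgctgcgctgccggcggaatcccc
Dusp5 had 24.8, 24.4, 42.3 and 22.6 CPM in Model and 24.2, 22.5, 21.7 and 19.4 CPM in M+NSPCC1 libraries. Model 03 stood above the rest, and the other 7 libraries overlapped. The list score of the immediate early genes put M+NSPCC1 01 with the Model libraries, at 0.12, and the other 3 M+NSPCC1 libraries between -0.20 and -0.16. Without M+NSPCC1 01 the median was -0.25.

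Cell junction genes also lay lower. Of 49 claudins, desmosome proteins and cadherins tested, 35 lay below 0, the median was -0.13, and 8 (16.3%), among them Cldn1, Cldn3, Dsc2, Pkp1 and Tjp1, were free of overlap below, against 2.89% of all genes. Tjp1, the tight junction scaffold ZO-1, had 125, 137, 115 and 139 CPM in Model 01 to 04 and 94.7, 90.0, 105 and 109.6 CPM in M+NSPCC1 01 to 04. Groups did not overlap, with Model 03 the lowest of its group, and the log2 fold change was -0.37 (SE 0.085, edgeR adjusted p = 0.36).

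Dsc2, a desmosomal cadherin, had 63.3, 62.5, 63.0 and 69.5 CPM in Model and 36.0, 42.9, 50.9 and 43.9 CPM in M+NSPCC1 libraries. All its M+NSPCC1 values lay under the lowest Model value. The log2 fold change was -0.57 (SE 0.11, edgeR adjusted p = 0.248) and -0.50 with the hair shaft covariate. Pkp1, a desmosomal plaque protein, lay at -0.21 (SE 0.092), and its groups nearly met at Model 01 and M+NSPCC1 01. The junction list stayed lower with the muscle covariate, at -0.075, and with each of the 8 libraries left out, between -0.17 and -0.097.

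Nuclear genes of oxidative phosphorylation lay higher, mostly by small amounts. Of the 33 genes of complex I 31 lay above 0 (median 0.11), as did all 17 of complexes II and III (median 0.13) and all 24 of complexes IV and V (median 0.10). None passed, and 4 (Ndufa11, Ndufs4, Atp5a1 and Atp5b) were free of overlap, where 1.3% of all genes were. Ndufs4, a subunit of complex I, had 94.9, 90.8, 89.2 and 78.2 CPM in Model and 99.1, 102, 99.1 and 100.1 CPM in M+NSPCC1 libraries. The M+NSPCC1 values lay close together and above all Model values, of which Model 04 was lowest, and the log2 fold change was 0.18 (SE 0.064). Ndufa11, also of complex I, lay at 0.16 (SE 0.061) without overlap. Uqcc3, which assembles complex III, lay at 0.23 (SE 0.10) and Atp5j2, a subunit of ATP synthase, at 0.22 (SE 0.084), both with overlap. Values in complexes IV and V ran from 0.0022 to 0.59, the highest being that of Cox8b, which is also in the muscle energy list.

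With the muscle covariate the 3 oxidative phosphorylation medians were 0.056, 0.044 and 0.042. Model 04 lay farthest from the mean of the 8 in all 3 lists, at -0.19, -0.18 and -0.29, and without it the medians were 0.049, 0.085 and 0.061. The part of muscle content in these differences was not tested apart from that of single libraries. Glycolysis genes, at 0.086, turned to -0.11. Crat, which attaches acetyl groups to carnitine, had 133, 114, 161 and 111 CPM in Model and 199.9, 156, 186 and 159 CPM in M+NSPCC1 libraries. Only Model 03 reached the M+NSPCC1 range, and the log2 fold change of 0.43 (SE 0.13) became 0.29 with the covariate. The 70 splicing factors (54 above 0, median 0.083) and 72 cytoplasmic ribosomal proteins (60 above 0, median 0.042) lay less than 0.1 above 0. Lsm6, of the U6 splicing particle, lay at 0.32 (SE 0.11) and the RNA-binding protein Hnrnpdl at 0.24 (SE 0.083), both without overlap.

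Matrix genes and genes often measured in aged skin did not move together. Of the 13 collagens tested 12 lay above 0, with a median of 0.20, and 2 were free of overlap, against 1.3% of all genes. Col11a1, a minor fibrillar chain, had 129.8, 85.2, 78.7 and 112 CPM in Model and 153, 144, 149 and 139 CPM in M+NSPCC1 libraries and a log2 fold change of 0.53 (SE 0.23, edgeR adjusted p = 0.699). Model 02 and Model 03 were lowest, and no values overlapped. Col27a1, another fibrillar chain, had 0, 2.32, 2.58 and 5.03 CPM in Model and 10.8, 7.97, 7.65 and 7.72 CPM in M+NSPCC1 libraries, through 1 row of the tables. Tnmd, a protein of tendon and other dense connective tissue, lay at 0.56 (SE 0.19) without overlap. Fbn2, a microfibril protein, lay at 0.62 (SE 0.28), with overlapping groups.

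Of the 28 skin ageing genes chosen as a set, 10 were in the tables and tested, and none passed. The matrix genes among them spanned wide ranges set by Model 02 and Model 03. Col3a1, a main dermal collagen chain, had 3352, 2562, 6394 and 4552 CPM in Model 01 to 04 and 4675, 4672, 4498 and 3651 CPM in M+NSPCC1 01 to 04, and Eln, elastin, 127, 80.1, 235 and 131 and 157, 115, 117 and 146 CPM. For both genes the M+NSPCC1 values lay inside the span of Model 02 and Model 03. The log2 fold changes were 0.053 (95% interval -0.46 to 0.57) and -0.10 (95% interval -0.69 to 0.49). Fbn1, fibrillin 1, lay at 0.17 (SE 0.19) and the gelatinase Mmp9 at -0.57 (SE 0.50).

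Cdkn1a, the cell cycle inhibitor p21, had 553, 582, 574 and 519 CPM in Model and 459, 457, 501 and 500.3 CPM in M+NSPCC1 libraries. The groups did not overlap, and the log2 fold change was -0.22 (SE 0.084, edgeR adjusted p = 0.674). Trp53, which encodes the p53 protein, lay at -0.064 (SE 0.089). The superoxide dismutases lay at 0.25 (SE 0.12) for cytosolic Sod1 and 0.0085 (SE 0.092) for mitochondrial Sod2, whose 95% interval of -0.19 to 0.21 excluded a change of 1.5-fold. Flg, filaggrin of the cornified layer, had 264, 324, 415 and 398 CPM in Model and 696, 459, 399 and 634 CPM in M+NSPCC1 libraries. M+NSPCC1 03 lay inside the Model range, the other 3 above it, and the log2 fold change was 0.64 (SE 0.21, edgeR adjusted p = 0.605). Krt10, the keratin of the suprabasal epidermis, lay at 0.23 (SE 0.27), and Model 03, with 2352 CPM, exceeded all M+NSPCC1 libraries.

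The macrophage and interferon lists had medians below 0 whose sign turned with single libraries left out. Of 18 genes of macrophages and dendritic cells 17 lay below 0, and of 42 interferon response genes 28, where 48.5% of all genes did. The medians were -0.13 and -0.064, and 0.27 and 0.26 without Model 03. Without M+NSPCC1 04 they were 0.0037 and 0.038, and without M+NSPCC1 03 the interferon median was 0.008. The 5 lymphocyte genes tested went from 0.017 to 0.43 without Model 03, with no change of sign. Csf1r, the growth factor receptor of macrophages, had 126, 94.9, 307 and 144 CPM in Model and 115, 194, 145 and 103 CPM in M+NSPCC1 libraries, and Adgre1, the macrophage marker F4/80, 42.8, 23.8, 90.0 and 36.5 and 29.1, 50.5, 42.3 and 30.1 CPM. In both, Model 03 was the highest and Model 02 the lowest of the 8. Their log2 fold changes of -0.27 (SE 0.32) and -0.34 (SE 0.35) became 0.19 and 0.14 without Model 03.

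**Figure D4:**
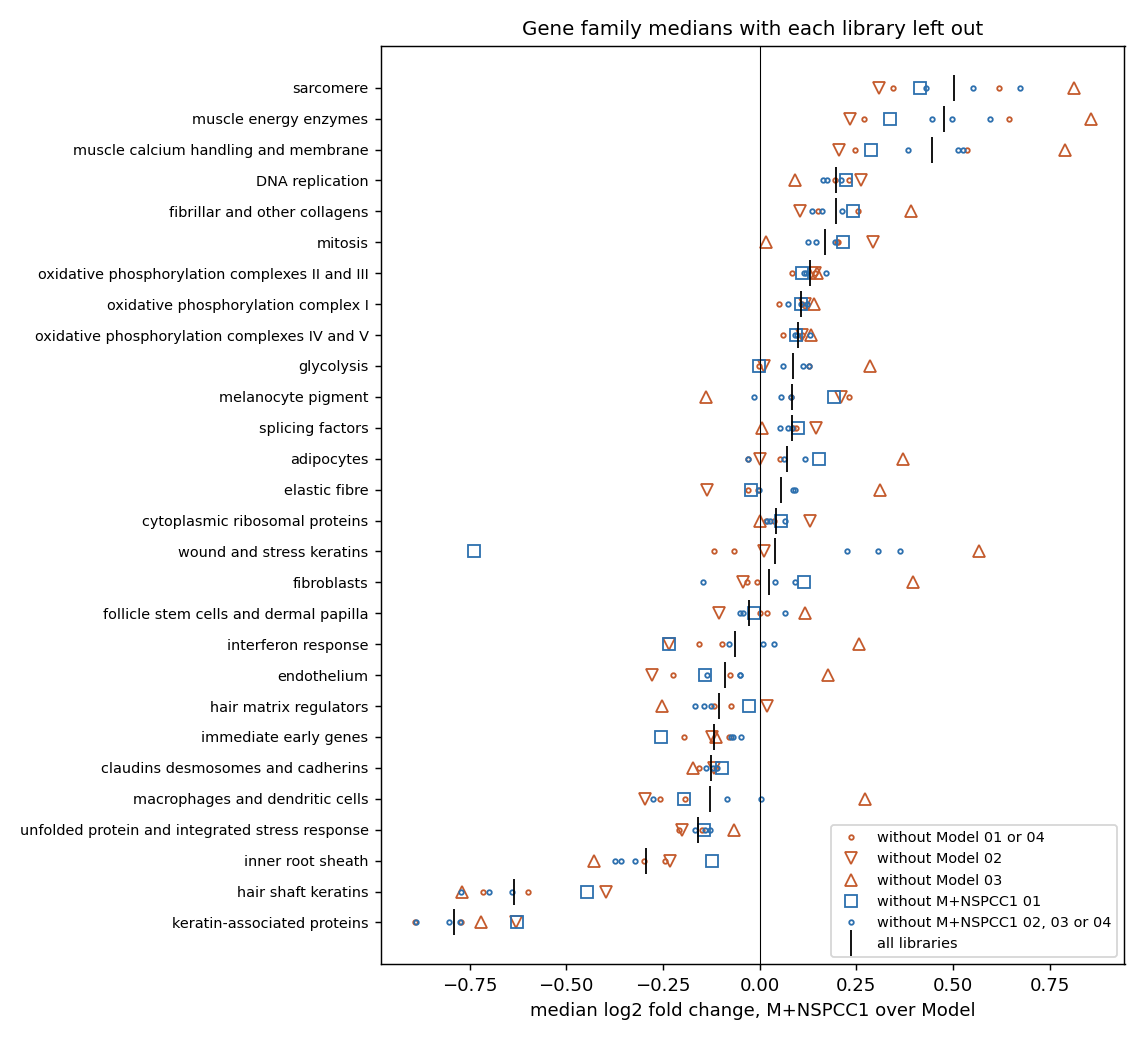
Median log2 fold change of M+NSPCC1 over Model (horizontal axis) of the same 28 lists with all libraries (vertical ticks) and with each of the 8 libraries left out in turn (Model in orange, M+NSPCC1 in blue). The hair shaft, keratin-associated protein, inner root sheath, muscle, junction and oxidative phosphorylation lists stay on one side of 0, while the macrophage, interferon, endothelial and pigment lists cross it without Model 03.

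None of the signalling genes named next passed edgeR's test after adjustment, and Foxo3 alone of them had a DESeq2 adjusted p under 0.05 (0.0124). Hes5 and Hey2, targets of Notch, lay higher without overlap, at 1.26 (SE 0.37, from 0.466 to 0.927 CPM in Model and 1.58 to 2.10 CPM in M+NSPCC1) and 0.61 (SE 0.20). The median of the 14 Notch genes was 0.004. Lower without overlap were Lgr4, a receptor for R-spondins, at -0.27 (SE 0.076), Bmp7, a bone morphogenetic protein, at -0.23 (SE 0.065), Tgfa, a ligand of the EGF receptor, at -0.38 (SE 0.11), and Foxo3, a transcription factor restrained by insulin signalling, at -0.31 (SE 0.076). Fgfr3, a fibroblast growth factor receptor, lay at -0.47 (SE 0.16) with overlap. Of the lists these genes come from, Notch had 2 of 14 free of overlap, both higher, and Wnt and Frizzled 2 of 39 in each direction. TGF-beta and BMP had 1 of 30, FGF, EGF and IGF 1 of 30, and Sox, Fox and Gata 2 of 20, all lower. Of all genes, 1.3% were free of overlap on the higher side and 2.89% on the lower.

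The genes nearest to passing edgeR's test on the lower side belonged to no single family. Ntn4, a laminin-related protein of basement membranes (chr10:93641049-93745972), had 53.9, 52.1, 64.1 and 67.6 CPM in Model 01 to 04 and 34.8, 37.4, 37.6 and 40.2 CPM in M+NSPCC1 01 to 04. The M+NSPCC1 values lay close together and below all Model values. Its log2 fold change was -0.66 (SE 0.11, 95% interval -0.90 to -0.43, edgeR adjusted p = 0.0887). Ppfibp2, the scaffold liprin beta 2 (chr7:107595047-107748583), had 73.2, 67.2, 77.0 and 69.7 CPM in Model and 47.4, 56.5, 48.7 and 51.1 CPM in M+NSPCC1 libraries, without overlap, and a log2 fold change of -0.50 (SE 0.079, edgeR adjusted p = 0.0887). Tent5b, a poly(A) polymerase (chr4:133480133-133487940), had 224, 254, 259 and 256 CPM in Model and 135, 168, 187 and 151 CPM in M+NSPCC1 libraries, a log2 fold change of -0.63 (SE 0.10, edgeR adjusted p = 0.0887). For all 3 the log2 fold change moved by less than 0.1 with the muscle covariate, to -0.67, -0.56 and -0.55. DESeq2 called all 3, at adjusted p-values of 5.13e-05 for Ntn4, 3.3e-05 for Ppfibp2 and 3.3e-05 for Tent5b.

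Car6, a secreted carbonic anhydrase, had 103, 51.8, 160.0 and 102 CPM in Model and 32.3, 31.8, 49.6 and 30.4 CPM in M+NSPCC1 libraries and a log2 fold change of -1.53 (SE 0.29, edgeR adjusted p = 0.248). The groups did not overlap but nearly met at Model 02 and M+NSPCC1 03. Dedd2, a death effector domain protein, lay at -0.54 (SE 0.10), Rnf39, a RING finger protein, at -0.58 (SE 0.12) and Myzap, a protein of cell junctions, at -0.45 (SE 0.094), all without overlap. Plk3, a kinase of the stress response, lay at -0.46 (SE 0.10), and M+NSPCC1 03 there lay just above Model 01.

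**Figure D5:**
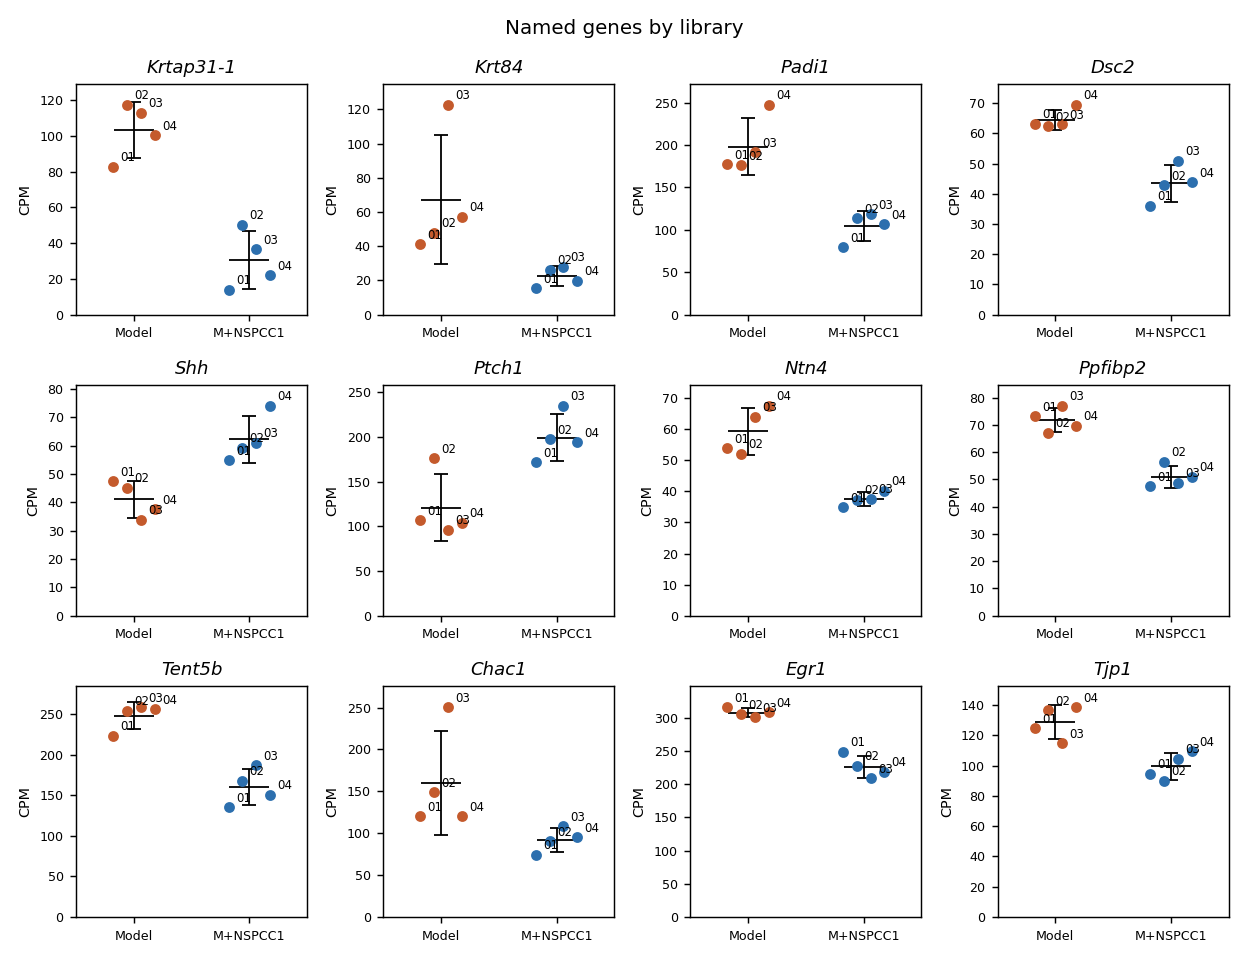
CPM (vertical axis, from 0) of 12 named genes in the 4 Model and 4 M+NSPCC1 libraries, with library numbers beside the points and bars for mean ± SD (n = 4). Ptch1 alone overlaps between groups, and Shh and Ptch1 are the 2 genes of the 12 that lie higher in M+NSPCC1.

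On the higher side, the genes with the smallest p included abundant genes with small differences. Spen, a transcriptional repressor, had 62.1, 71.5, 71.7 and 73.6 CPM in Model and 88.4, 86.1, 85.6 and 92.3 CPM in M+NSPCC1 libraries and a log2 fold change of 0.34 (SE 0.076, edgeR adjusted p = 0.36). Park7, the oxidative stress sensor DJ-1, had 165, 174, 159 and 157 CPM in Model and 191, 199, 184 and 195 CPM in M+NSPCC1 libraries and a log2 fold change of 0.23 (SE 0.057). Neither gene's groups overlapped. Mical1, an enzyme that oxidises actin, lay at 0.49 (SE 0.13), the poly(A)-binding protein Pabpc4 at 0.29 (SE 0.08) and Mrpl42, of the mitochondrial ribosome, at 0.29 (SE 0.081), also without overlap. Cep192, a centrosome protein, lay at 0.58 (SE 0.16) and Nmnat2, an enzyme of NAD synthesis, at 0.57 (SE 0.22), without overlap, and Frem1, a basement membrane protein, at 0.74 (SE 0.21) with it.

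Other genes on that side were near or at 0 in Model. Ppp1r26, a regulator of protein phosphatase 1, was at 0 in all 4 Model libraries and at 96, 71, 58 and 111 estimated counts in M+NSPCC1 01 to 04, which puts it at least 105-fold higher (bound from 3 counts over the Model group, counting error only). Xiap, an inhibitor of caspases, had none in Model and 87, 26, 28 and 30, at least 53.7-fold higher, and Kcnab1, a potassium channel subunit, none and 18, 11, 7 and 10, at least 14.4-fold higher. Ppp1r26 and Xiap had no count in the 4 Ctrl libraries either. The edgeR adjusted p was 0.0806 for Ppp1r26, 0.269 for Xiap and 0.0806 for Kcnab1. DESeq2 called all 3, at adjusted p-values of 1.64e-11, 1.99e-05 and 5.13e-05. Each was measured through 1 row of the tables, so the values may describe a transcript and not the whole gene. Of all genes tested, 11 were at 0 throughout Model and 65 throughout M+NSPCC1, of which 3 and 2 had a count in every library of the other group. The 2 were Serac1 and Reep3, named after their values were seen. Ccpg1, a receptor for the turnover of endoplasmic reticulum, had 1.42, 0.371, 1.29 and 0 CPM in Model and 6.05, 3.52, 2.91 and 5.33 CPM in M+NSPCC1 libraries, and Slc37a4, the glucose-6-phosphate transporter, 0, 0, 0 and 1.305 and 5.50, 1.58, 1.55 and 6.04 CPM, each through 1 row.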

How the data were processed

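RNA of 12 bulk mouse skin libraries was analysed, 4 each of Ctrl, Model and M+NSPCC1, grouped by title. The deposited tables give, per row, an estimated count and an FPKM value made by the authors. RSEM 1.3.1, HISAT2 2.2.1, DESeq2 1.34.0 and the build mm10 are listed, without settings, per the submitters' processing notes. The sources used here do not say how rows were selected for the tables. Rows with the same gene ID were summed (10720 rows to 7902 genes, 1971 of them with more than 1 row) and rounded, since 69.5% of genes were not whole (tolerance 0.011) in at least 1 library. 14 symbols that had become dates were restored through RefSeq, which matched 7879 gene IDs.

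The 7638 genes kept by edgeR's default filter were fitted with its quasi-likelihood test (edgeR 4.0.16, R 4.3.3, TMM scaling) over all 12 libraries, and p-values were adjusted by Benjamini and Hochberg over all genes tested (threshold 0.05). CPM values use the scaled totals, log2 CPM a prior count of 2. Standard errors come from the fold change and its F value, with 95% intervals. Limma 3.58.1 and DESeq2 1.42.0 were used in alternatives. The fit was tested on simulated data. Totals of 9717338 to 10952623 per library set the precision of low genes. Intervals cover the spread between libraries, estimated over all 12, so genes near 0 in Ctrl can have wide intervals.

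The comparison and its gene lists were chosen with earlier results of these data known, so counts over lists are descriptions. Named genes were the 10 of smallest p per direction (mean of 1 CPM or more), the 6 largest changes per direction without overlap (mean of 10 CPM or more), up to 3 members of smallest p per list, the 3 most abundant members of each muscle list, 28 skin ageing genes, and up to 3 promoters per stress list. Krtap24-1, Krtap20-2, Gli1, Mki67, Serac1, Reep3 and list members named only as free of overlap were named after their values were seen. A list of major histocompatibility genes, with H2-Q6, was added after a pattern for histone genes was found to take them in. Same-numbered libraries did not deviate together. A few genes picked by these criteria are not reported here.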

Additional observations from a re-analysis of the deposited data

Results flagged for a closer look

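Of 270 sets of 4 library values examined, 19 held 1 library whose gap to the nearest of the others exceeded Dixon's 95% critical value as a share of the range, a level that chance alone passes in about 1 in 20 sets. Their causes were not tested.

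Among the Model libraries, Model 03 was flagged most often. It had 231.4 CPM of Krtap20-2 against 2.94 to 6.15 in the others, 374.8 CPM of LOC115488662 against 10.4 to 19.5, and 139.2 CPM of Gm35174 against 1.99 to 3.06. These 3 are neighbours on chromosome 16. Model 03 also had 42.27 CPM of the phosphatase Dusp5 against 22.7 to 24.8, 21.43 CPM of the microfibril gene Fbn2 against 13.1 to 14.3, and 18.75 CPM of the pigment gene Slc45a2 against 54.5 to 60.2.

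Model 02 had 297.7 CPM of Krtap24-1 against 103.2 to 135.1 and 176.5 CPM of the receptor Ptch1 against 96.4 to 107. Model 01 had 223.8 CPM of Tent5b against 254 to 259. Model 04 had 69.53 CPM of the desmosomal Dsc2 against 62.5 to 63.3, 1.305 CPM of Slc37a4 where the other Model libraries had none, and an immediate early list score of -0.03643 from the mean of the 8 against 0.139 to 0.151.

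Among the M+NSPCC1 libraries, M+NSPCC1 01 had an immediate early score of 0.116 against -0.199 to -0.156, although its Dusp2 level of 30.25 CPM was below the 45.9 to 46.3 of the others. It also had 7.975 CPM of Xiap against 2.41 to 2.66 and 10.82 CPM of Col27a1 against 7.65 to 7.97. M+NSPCC1 02 had 30.5 CPM of Slc7a11 against 34.1 to 34.6. M+NSPCC1 03 had 49.55 CPM of Car6 against 30.4 to 32.3. M+NSPCC1 04 had 0.2664 CPM of H2-Q6 where the other 3 had none.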

How the results depend on the processing

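With 4 libraries a group, with 1 library able to turn a list and with genes under about 1 CPM measured by few counts, the differences here are measurements of these libraries. Of 2188 values of named genes under the alternatives, 34 reversed, and 86 of 100 genes had no reversal. Of 1540 list medians, 44 moved by more than the spread between libraries. Where a value changed, the cause was not tested.

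Genes passing numbered 1 higher (Ppp1r26) and 1 lower in the 8 libraries alone, and 1 higher (Ppp1r26) with limma voom and weights by group. They numbered 3 higher and 4 lower without Model 03 and M+NSPCC1 01, and 14 and 59 by DESeq2. With each library left out, genes passing ran from 0 to 1 higher and 0 to 3 lower. At an unadjusted p the numbers were 160 and 342 with all libraries, and ran from 110 to 756 and 238 to 493 with a library left out. Groups without overlap ran from 144 to 447 genes higher and 257 to 646 lower with a library left out (99 and 221 with all). Groups of fewer libraries separate more easily, so the counts with a library left out cannot be set against those with all. On FPKM values, an alternative chosen after seeing the data, groups without overlap numbered 180 and 141. The replicate block gave 0 passing in either direction and 145 higher and 293 lower at an unadjusted p, and correlations of same-numbered deviations were 0.119, -0.139, -0.162 and 0.0854, so the numbers were not taken to pair samples.

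List medians moved as follows. With the muscle covariate hair shaft keratins lay at -0.19, follicle stem cells and dermal papilla at -0.18 and complexes II and III at 0.044. With that covariate in the 8 libraries hair shaft keratins lay at -0.17, hair matrix regulators at 0.16, melanocyte pigment at 0.56 and junctions at -0.064. With the hair shaft covariate hair shaft keratins lay at 0.43, keratin-associated proteins at 0.16, inner root sheath at 0.40 and the unfolded protein and integrated stress response at -0.21. On log2(FPKM + 1) and log2(FPKM + 0.1) that stress list lay at -0.095 and -0.10 and junctions at -0.051 and -0.063. The medians of all genes on these scales were 0.050 and 0.061. Adipocytes lay at 0.51 without Model 03 and M+NSPCC1 01. With a library left out the medians ran from -0.10 to 0.12 for follicle stem cells and dermal papilla, -0.21 to -0.067 for the stress list and -0.25 to -0.049 for immediate early genes.

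Log2 fold changes that reversed with the muscle covariate in 12 and in 8 libraries were those of Acta1 (-0.027 and -0.043), Col3a1 (-0.13 and -0.15), Fbn1 (-0.061 and -0.073), Trp53 (0.020 and 0.030) and Krt10 (-0.13 and -0.11), and in 8 libraries alone Pygm (-0.000965) and Sod2 (-0.000617). With the hair shaft covariate Krt26 lay at 0.28 and Sod2 at -0.0058. With each library left out, log2 fold changes ran from -0.13 to 0.50 for Krtap24-1, -0.000857 to 0.38 for Mki67, -0.47 to 0.19 for Csf1r, -0.56 to 0.14 for Adgre1, -0.12 to 0.33 for Col3a1, -0.29 to 0.25 for Eln, -0.84 to 0.21 for Mmp9 and -0.049 to 0.082 for Sod2. Model 03 was the library whose absence reversed Mki67, Csf1r, Adgre1, Eln and Mmp9. Without Model 03 and M+NSPCC1 01 Csf1r lay at 0.27, Adgre1 at 0.25, Eln at 0.16 and Sod2 at -0.089. Eln lay at 0.027 and 0.031 on the FPKM scales.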

Other observations

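Some genes outside the families described differed between libraries by large factors at low levels. H2-Q6, a class I histocompatibility gene with close paralogs that share reads, had 8.52, 0.0927, 30.1 and 20.04 CPM in Model 01 to 04 and 0, 0, 0 and 0.266 CPM in M+NSPCC1 01 to 04. Model 02 was near the M+NSPCC1 level. The homeobox genes Hoxa10 and Hoxa9, which mark position along the body, had 0.758, 2.60, 7.14 and 9.23 CPM and 0.947, 2.41, 3.57 and 9.88 CPM in Model, and at most 1.1 and 2.13 CPM in M+NSPCC1 libraries. Kdm4b, a histone demethylase, had 1.61, 0, 1.69 and 4.10 CPM in Model and 10.7, 6.40, 12.1 and 14.1 CPM in M+NSPCC1 libraries, without overlap. None passed edgeR's test after adjustment. DESeq2 called H2-Q6 (adjusted p = 0.00655) and Hoxa10 (0.0119), and did not call Hoxa9 (0.147) or Kdm4b (0.0612).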
